A study of Mus musculus with 6 samples.

Results

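The genes described here are those named for the proteins of the cytosolic ribosome. They were taken by symbol, as genes whose symbol begins Rpl or Rps followed by a digit together with Rpsa, Rplp0, Rplp1 and Rplp2, without the S6 kinases (Rps6k) and without pseudogene symbols. Of 18193 genes measured by a probe set with a single gene symbol, 50 met the rule. Of these, 43 are ribosomal proteins in the strict sense, 21 of the small and 22 of the large subunit. A further 6 are paralogues that resemble a ribosomal protein gene (Rpl3l, Rpl7l1, Rpl22l1, Rpl39l, Rps4l and Rps27l), of which RefSeq lists Rps4l as a transcribed pseudogene, and Rps19bp1 encodes a protein that binds the ribosomal protein Rps19 and is not itself part of the ribosome. Each gene was read by its brightest probe set, the one of highest mean over all 6 arrays, so Rplp1, Rpl5 and other ribosomal protein genes whose probe sets all name a further gene or pseudogene are not among the 50.

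Microglia, the resident macrophages of the central nervous system, were compared on whole-genome mouse Affymetrix arrays between a mouse model of amyotrophic lateral sclerosis (ALS) and its control, to find the transcripts that differ in these cells early in the symptomatic phase. The SOD1 G93A mice carry the human SOD1 gene with the G93A mutation of familial ALS as a high copy number transgene, B6SJL-Tg(SOD1-G93A)1Gur/J, on a B6SJL background, and the WT mice were control littermates without it. All were males at 90 days of age. Cells were taken from the lumbar spinal cord after enzymatic dissociation and sorted by FACS on CD11b, a surface protein of microglia and of other myeloid cells. Each genotype was measured on 3 arrays, each loaded with the RNA of a pool of 6 or more mice, so replicate error here is the error between pools of animals. In such bulk samples, fewer cells of a type and less RNA per cell cannot be told apart.

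A ribosome carries each of its proteins in a fixed ratio, and the genes for these proteins are among the most highly transcribed in any cell. Their mRNAs begin with a cytosine followed by a run of pyrimidines, the terminal oligopyrimidine or TOP motif, through which the growth kinase mTORC1 controls how well they are translated. Proteins that do not find a place in a ribosome are degraded, and some, such as Rpl11, then bind Mdm2 and so stabilise p53.

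Short stretches of the promoters show what many of these genes share at the level of sequence. RefSeq promoters (GRCm38.p6, 250 bases before to 50 bases after each annotated start) were listed for 44 of the 50 genes. The stretches printed next run from 12 bases before the start, with 18 bases from the start on, on the strand of the gene. Capitals mark a C followed by at least 4 pyrimidines, the letters of a TOP motif. In 4 genes (Rps6, Rpl38, Rplp2 and Rps27) a C of such a run lies on the annotated start. The other 3 genes (Rps26, Rpl7a and Rps24) rose in the sorted cells of SOD1 G93A mice and hold a run within 5 bases of the start.
Rps6, chr4:86857350-86857379, minus strand: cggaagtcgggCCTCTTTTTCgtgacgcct
Rpl38, chr11:114668568-114668597, plus strand: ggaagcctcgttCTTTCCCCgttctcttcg
Rplp2, chr7:141447639-141447668, plus strand: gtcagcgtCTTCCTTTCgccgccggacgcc
Rps27, chr3:90213631-90213660, minus strand: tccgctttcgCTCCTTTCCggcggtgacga
Rps26, chr10:128626489-128626518, minus strand: gggcaagccgccggatCCTCTTTCgagtct
Rpl7a, chr2:26910795-26910824, plus strand: ccctcttCTTTCTTTCTCCagcagccgagc
Rps24, chr14:24490666-24490695, plus strand: gcgctggggtCCTTCCTTgcgcgttgatat

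A run of this kind with a C on the annotated start itself was present in 8 of the 44 genes (18.2%), against 813 of 27025 genes with a listed promoter (3.01%). One beginning within 5 bases of the start was present in 20 of the 44 (45.5%) against 21.2%. Whether the annotated starts are those used in these cells was not tested. The letters CCGGAAG, searched on both strands as the core to which Ets-family factors such as GABP bind, were present in 21 of the 44 promoters (47.7%) against 9.93% of all genes. They are shown in capitals for 4 of the genes that rose, with CTTCCGG where the match lies on the other strand.
Rpl41, chr10:128549206-128549235, minus strand: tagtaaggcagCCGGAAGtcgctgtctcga
Rpl6, chr5:121204502-121204531, plus strand: ttgcttatagaCCGGAAGccgctgccttag
Rpl19, chr11:98026660-98026689, plus strand: acttagcgtgaCTTCCGGctacccagagga
Rpl11, chr4:136053369-136053398, minus strand: aggccacggggCCGGAAGtctccctctctc

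GGGCGG, the core of the Sp1 site, was present in 26 of the 44 promoters (59.1%) against 38.2% of all genes. AAGATGGCG, the YY1 motif, was found in 3 (6.82%) against 1.64%, CACGTG, the E-box that Myc binds, in 4 (9.09%) against 8.09%, and TATAAA in 6 (13.6%) against 15.7%. The pyrimidine run was searched on the strand of the gene and the motifs on both strands. CCGGAAG and AAGATGGCG can overlap by the letters AAG, and a match of letters is a description of the window, not a binding site. Among the 13 genes that rose, 12 have a listed promoter, of which 7 hold CCGGAAG and 5 a pyrimidine run near the start. None of these 12 has a C of such a run on the annotated start. The 8 genes that do (Rpl14, Rpl35, Rpl38, Rplp2, Rps6, Rps10, Rps18 and Rps27) had log2 fold changes from 0.13 to 0.58 by their brightest probe sets. Of these 0 passed the test, where 26% of the 50 genes and 4.09% of all genes rose. Less bright probe sets of Rpl35 (0.76 and 0.61), Rps10 (0.90 and 0.75) and Rps18 (0.91 and 0.63) rose over the full array. Whether the 8 genes differ from the others was not tested.

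The ribosomal protein genes were higher in the CD11b-sorted cells of SOD1 G93A mice almost throughout, by a small amount. The log2 fold change, SOD1 G93A minus WT, was above 0 in 48 of the 50 genes (96%), against 54.4% of all genes tested. Its median was 0.39, a 1.31-fold difference, against 0.02 for all genes, and it ranged from -0.49 to 0.98 with an SD of 0.26 over the genes. In limma, with p adjusted by Benjamini-Hochberg over all 18193 genes and taken under 0.05, 13 of the 50 genes rose (26%) and 0 fell, where 4.09% of all genes rose and 2.53% fell. At an unadjusted p under 0.05 there were 32 higher (64%, against 12.7% of all genes) and 1 lower, Rps9. The 3 SOD1 G93A arrays lay above the 3 WT arrays without overlap in 35 genes (70%, against 16.6%) and below them in 0 (against 10.9%).

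The mean log2 signal over the 50 genes was 11.31, 11.19 and 11.25 on the SOD1 G93A arrays and 10.92, 10.86 and 10.84 on the WT arrays. The means over the genes did not overlap, at 11.25 ± 0.06 (SD, n = 3) against 10.87 ± 0.04 (SD, n = 3). A SOD1 G93A array held the highest of the 6 values in 46 genes, and SOD1 G93A replicate 1 alone held it in 26. Since many of these genes are bright, they were also set beside other bright genes. Of the 35 genes with a mean log2 signal of 10 or more, 12 rose (34.3%), against 9.79% of the 1379 genes this bright, of which 5.58% fell. The difference was above 0 in 34 of the 35 (97.1%, against 48%), and the arrays did not overlap in 30 (85.7%, against 23.1%). At the thresholds the study used, a change of 1.75-fold with p under 0.05 before adjustment, 2 of the 50 genes were called higher, Rplp0 and Rpl6, and 0 lower, where 1.54% of all genes were called higher.

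**Figure D1:**
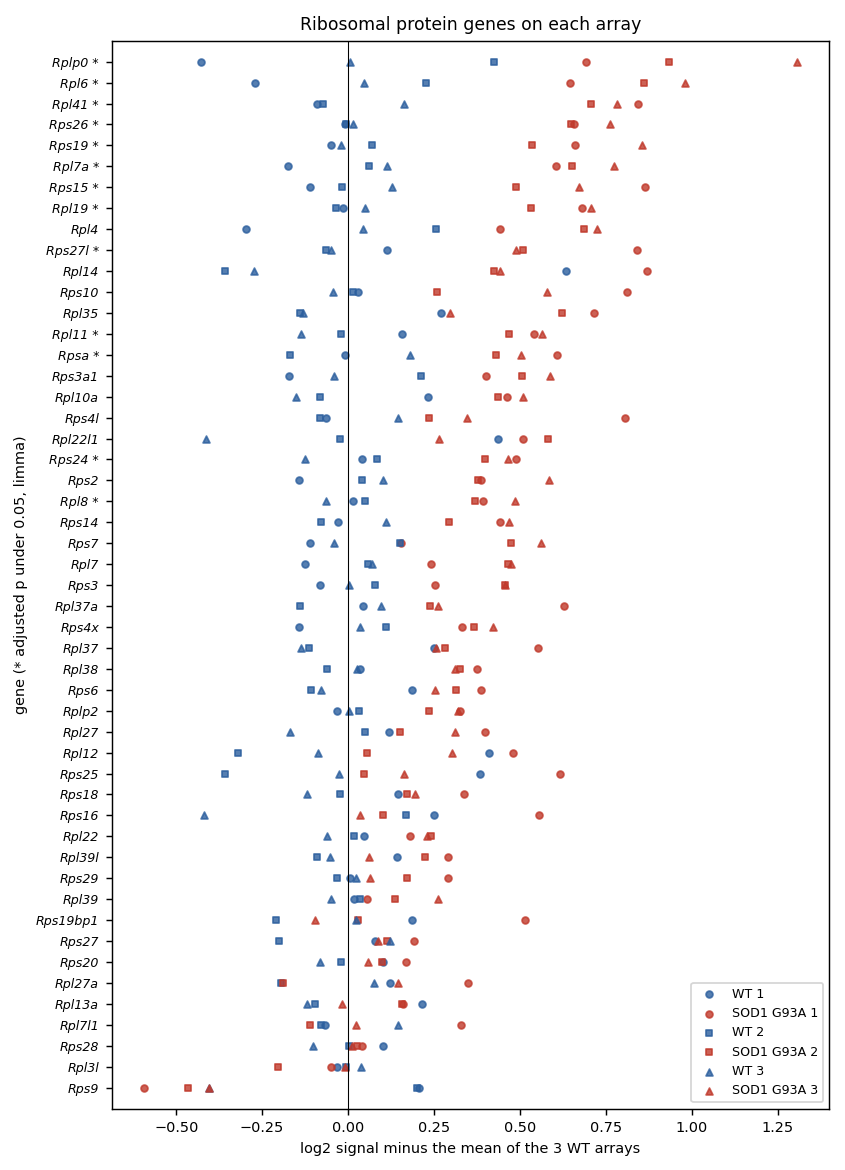
Log2 signal of each of the 50 genes on each array, minus the mean of the 3 WT arrays, with genes ordered by their log2 fold change, SOD1 G93A arrays in red, WT arrays in blue and the marker shape giving the replicate number. The red points lie to the right of the blue ones in 35 genes. Rps9, at the bottom, has a log2 fold change of -0.49, with red and blue points that overlap.

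The count of 13 rested on several arrays. Leaving out 1 array at a time, 10 genes rose without SOD1 G93A replicate 1, 6 without replicate 2 and 2 without replicate 3, and 13, 7 and 4 without WT replicates 1, 2 and 3. The share of all genes that rose in these fits was 3.95%, 1.64% and 1.4% without SOD1 G93A replicates 1, 2 and 3 and 3.45%, 1.73% and 1.45% without WT replicates 1, 2 and 3. The median log2 fold change stayed between 0.36 and 0.41 in these fits. Rpl41 and Rps26 passed in all 6.

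In the large subunit 7 of 22 genes rose, where 4.09% of all genes rose. The median log2 fold change was 0.40, and all 22 differences were above 0, against 54.4% of all genes. Rplp0, which forms the base of the stalk that recruits the elongation factors, had the largest difference. Its log2 signal was 11.86, 12.10 and 12.47 on the SOD1 G93A arrays and 10.74, 11.59 and 11.17 on the WT arrays. The groups did not overlap, and the log2 fold change was 0.98 (standard error, SE, 0.23, adjusted p = 0.0383 from limma). Rplp0 varied more between WT arrays than most of the genes, and it did not pass without SOD1 G93A replicate 2 (adjusted p = 0.112) or 3 (0.137), or without WT replicate 1 (0.0608) or 3 (0.117). The other measured parts of the stalk did not pass. Rplp2, one of the acidic proteins bound to Rplp0, had a log2 fold change of 0.29 (adjusted p = 0.118), with 13.34, 13.25 and 13.33 against 12.98, 13.05 and 13.02, and Rpl12, which sits beside the stalk base, had 0.28 (adjusted p = 0.466), with arrays that overlapped.

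Rpl6, a protein of the solvent side of the large subunit, read 12.51, 12.72 and 12.84 on the SOD1 G93A and 11.59, 12.09 and 11.91 on the WT arrays. WT replicate 1 was the lowest array, and the log2 fold change was 0.83 (SE 0.15, adjusted p = 0.0166 from limma). It did not pass without SOD1 G93A replicate 2 (adjusted p = 0.0695) or 3 (0.0736), or without WT replicate 3 (0.0607). Rpl41, the smallest ribosomal protein, which lies between the subunits, read 13.72, 13.58 and 13.66 against 12.78, 12.80 and 13.04. These groups stood well apart, and the log2 fold change was 0.78 (SE 0.11, adjusted p = 0.00696). Its probe sets disagreed, so that the log2 fold change was 0.071 with the mean of all 4 (adjusted p = 0.855) and -0.66 without suffixed probe sets (adjusted p = 0.271). Rpl41 is also among the 15 genes with a genotype mean of 13 or more, where the size of a change is uncertain because saturation was not tested.

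Rpl7a, which binds ribosomal RNA on the outer face of the large subunit, read 12.91, 12.96 and 13.08 against 12.13, 12.37 and 12.42, a log2 fold change of 0.68 (SE 0.12, adjusted p = 0.0137 from limma). All SOD1 G93A arrays lay above all WT arrays, and the gene did not pass without SOD1 G93A replicate 2 (adjusted p = 0.0557) or 3 (0.0653). Rpl19, which helps to bridge the subunits, read 12.67, 12.53 and 12.70 against 11.98, 11.96 and 12.04, a log2 fold change of 0.64 (SE 0.10, adjusted p = 0.0104). The replicates of each genotype were close for this gene, and it did not pass without SOD1 G93A replicate 3 (adjusted p = 0.0525). Rpl8, which lies near the peptidyl transferase centre, read 12.20, 12.18 and 12.29 against 11.82, 11.86 and 11.74, a log2 fold change of 0.42 (SE 0.10, adjusted p = 0.0439). It was the weakest of the calls, and did not pass when any of the 6 arrays was left out (adjusted p from 0.071 to 0.157).

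Rpl11, which travels with the 5S RNA and can bind Mdm2, was the only measured protein of that particle. It read 11.93, 11.86 and 11.95 on the SOD1 G93A and 11.54, 11.37 and 11.25 on the WT arrays. The SOD1 G93A arrays lay within a narrow band above the WT arrays, and the log2 fold change was 0.53 (SE 0.11, adjusted p = 0.0290 from limma). It passed without WT replicate 1, but not without any other single array (adjusted p from 0.0568 to 0.110). Rpl4, whose loop reaches into the exit tunnel of the growing protein, came closest among the genes that did not pass, with a log2 fold change of 0.62 (SE 0.16, adjusted p = 0.0509). Of 4 measured proteins around the mouth of that tunnel Rpl19 rose by its brightest probe set, and by theirs the others had log2 fold changes that did not pass, Rpl35 at 0.54 (adjusted p = 0.0768, with 2 less bright probe sets that rose by 0.76 and 0.61), Rpl22 at 0.22 (adjusted p = 0.246) and Rpl39 at 0.15 (adjusted p = 0.472).

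In the small subunit 5 of 21 genes rose, where 4.09% of all genes rose. The median log2 fold change was 0.39, and 20 differences were above 0, against 54.4% of all genes. Rps26, which touches the mRNA where it leaves the ribosome, had the lowest adjusted p of the 50 genes. Its log2 signal was 12.35, 12.34 and 12.45 on the SOD1 G93A arrays and 11.68, 11.68 and 11.70 on the WT arrays. The WT arrays were nearly equal, with an SD of 0.01 (n = 3), and the log2 fold change was 0.69 (SE 0.10, adjusted p = 0.00637 from limma). Rps19, the protein most often mutated in Diamond-Blackfan anaemia, an inherited failure of red cell formation, read 12.05, 11.92 and 12.24 against 11.34, 11.45 and 11.36. SOD1 G93A replicate 3 was the highest, and the log2 fold change was 0.68 (SE 0.12, adjusted p = 0.0127). Rps19 did not pass without SOD1 G93A replicate 3 (adjusted p = 0.0553) or WT replicate 3 (0.0557).

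Rps15, which lies near the decoding site and is needed for the export of small subunits from the nucleus, read 12.89, 12.51 and 12.69 against 11.91, 12.01 and 12.15. The groups were apart by more than the spread within either, with a log2 fold change of 0.675 (SE 0.13, adjusted p = 0.0191 from limma). It did not pass without SOD1 G93A replicate 3 (adjusted p = 0.0743), WT replicate 2 (0.0676) or WT replicate 3 (0.05002). Rpsa, also known as the laminin receptor precursor, read 13.45, 13.27 and 13.35 against 12.83, 12.67 and 13.02, a log2 fold change of 0.51 (SE 0.12, adjusted p = 0.0415). It stood in the brightest range, and did not pass when any of the 6 arrays was left out (adjusted p from 0.0577 to 0.131) or with the mean of its 2 probe sets (0.25, adjusted p = 0.166). Rps24, another gene of Diamond-Blackfan anaemia, read 12.05, 11.96 and 12.02 against 11.60, 11.64 and 11.43, a log2 fold change of 0.45 (SE 0.11, adjusted p = 0.0407). It too did not pass when any array was left out (adjusted p from 0.0612 to 0.136), and its log2 fold change was 0.23 with the mean of all probe sets (adjusted p = 0.188) and -0.30 without suffixed ones (adjusted p = 0.129). Of the 11 measured genes known from that anaemia 4 rose (Rps19, Rps24, Rps26 and Rpl11), where 4.09% of all genes rose. Their median log2 fold change was 0.45, and all 11 differences were above 0. Over the 43 proteins in the strict sense, which include these 11, 12 rose with a median of 0.39, and 42 differences were above 0. Whether the genes of the anaemia differ from the others was not tested.

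Other members of the small subunit had smaller positive differences that did not pass. Rps3, which guides the mRNA into the entry channel, had a log2 fold change of 0.39 (adjusted p = 0.0717 from limma). Rps6, the protein that the S6 kinases phosphorylate downstream of mTORC1, read 9.39, 9.31 and 9.25 on the SOD1 G93A and 9.18, 8.89 and 8.92 on the WT arrays, a log2 fold change of 0.32 (adjusted p = 0.151). Its groups did not overlap, although WT replicate 1 lay close to the SOD1 G93A arrays. In all, 11 of the 50 genes had an adjusted p between 0.05 and 0.1, and all had positive differences.

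Some bright genes differed little by their brightest probe set. Rps28, which sits at the mRNA exit, had a log2 fold change of 0.03 at a mean log2 signal of 13.99, and Rps29, a small zinc-binding protein, 0.17 at 14.02. Rps20 had 0.11 and Rpl13a, which can leave the ribosome to repress the translation of inflammatory mRNAs, 0.10. Less bright probe sets of Rpl13a, at mean signals of 12.05, 11.48 and 10.33, differed by 0.27, 0.75 and 0.39. The difference of 0.75 passed in limma (adjusted p = 0.0212 over the full array). The highest signals of the arrays were 14.51 to 14.59, against 12.82 for the mean of the brightest probe set of Rpl13a. Among the 15 genes with a genotype mean of 13 or more, 2 rose with a median log2 fold change of 0.38. Among the 35 others 11 rose with a median of 0.42, where 4.09% of all genes rose. At the dim end, Rps16 and Rpl3l had mean log2 signals of 3.41 and 3.64, below the 5 taken as close to background, and their values carry little information on the genes.

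The paralogues were less bright and gave 1 rise among 6, where 4.09% of all genes rose. Rps27l, a relative of Rps27 whose gene is a target of p53, read 9.65, 9.32 and 9.30 on the SOD1 G93A and 8.92, 8.74 and 8.76 on the WT arrays. Replicate 1 was the highest in both genotypes, and the log2 fold change was 0.61 (SE 0.13, adjusted p = 0.0268 from limma). It did not pass without SOD1 G93A replicate 2 (adjusted p = 0.0681) or 3 (0.0653), or without WT replicate 2 (0.0907) or 3 (0.0980), while Rps27 itself, at a mean of 6.39, had a log2 fold change of 0.13 (adjusted p = 0.598). Rpl22l1, which can replace Rpl22 in the ribosome, had a log2 fold change of 0.45 with overlapping arrays (adjusted p = 0.237), where Rpl22 had 0.22. Rps4l had 0.46 (adjusted p = 0.128), Rpl39l 0.19 (adjusted p = 0.396), Rpl7l1 0.08 (adjusted p = 0.803) and Rpl3l, best known from muscle, -0.09 (adjusted p = 0.698). Rps19bp1, outside the ribosome, had 0.15 (adjusted p = 0.695).

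Rps9, a small-subunit protein near the mRNA entry, was the exception in direction. The probe set with its highest signal read 11.64, 11.76 and 11.82 on the SOD1 G93A and 12.43, 12.43 and 11.82 on the WT arrays. WT replicate 3 lay with the SOD1 G93A arrays, so that the groups overlapped, and the log2 fold change was -0.49 (SE 0.17, adjusted p = 0.134 from limma). Without WT replicate 3 it was -0.69 and passed (adjusted p = 0.0365), the sole setting among those run in which any of the 50 genes fell. A second probe set of Rps9, with a mean log2 signal of 11.55, differed the other way by 0.45, with an adjusted p of 0.176 over the full array, and the third, at 7.54, by -0.07. Which of these reads the transcript of Rps9 was not tested.

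The symbol of Rps9 also appears among the reference genes of the study's quantitative PCR, beside the name of the mitochondrial protein. Mrps9, the gene of that mitochondrial protein, had a log2 fold change of -0.0022 (adjusted p = 0.995 from limma) and changed sign under some other settings. The other reference genes were Tbp at 0.14 (adjusted p = 0.692), Actb at 0.15 (adjusted p = 0.602) and the elongation factor EEF1, for which the subunit is not given and Eef1a1 was taken here, at 0.37 (adjusted p = 0.135). Of these 5 genes 0 passed in limma, and Rps9 and Eef1a1 had an unadjusted p under 0.05.

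Further probe sets gave a second view of the same genes. The 50 genes have 106 probe sets with a single symbol, of which 89 were higher in SOD1 G93A and 25 rose when p was adjusted over the 45037 probe sets, where 2.71% of all probe sets rose. None fell, against 1.93%. The 56 probe sets that were not the brightest of their gene had a median log2 fold change of 0.30, and 14 of them rose. A further 110 probe sets name a ribosomal protein gene together with other genes, and of these 93 were higher, 26 rose and 0 fell, with a median of 0.32. Probe sets of 1 gene share its RNA and its arrays and are not replicates.

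The size of the difference varied with the brightness of the probe set, without rising steadily. The 18 probe sets with a mean log2 signal below 7 had a median log2 fold change of -0.0055, 7 were above 0, and 0 rose. The 25 from 7 to below 10 had a median of 0.30, and 3 rose, while the 44 from 10 to below 13 had a median of 0.55, and 20 rose. At 13 or more the median of 19 probe sets was again 0.30, with 2 that rose. Over the 50 genes, each at its brightest probe set, the Spearman rho of log2 fold change with mean log2 signal was 0.11, and over the 43 proteins in the strict sense -0.03, as a description over points that share the same arrays.

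**Figure D2:**
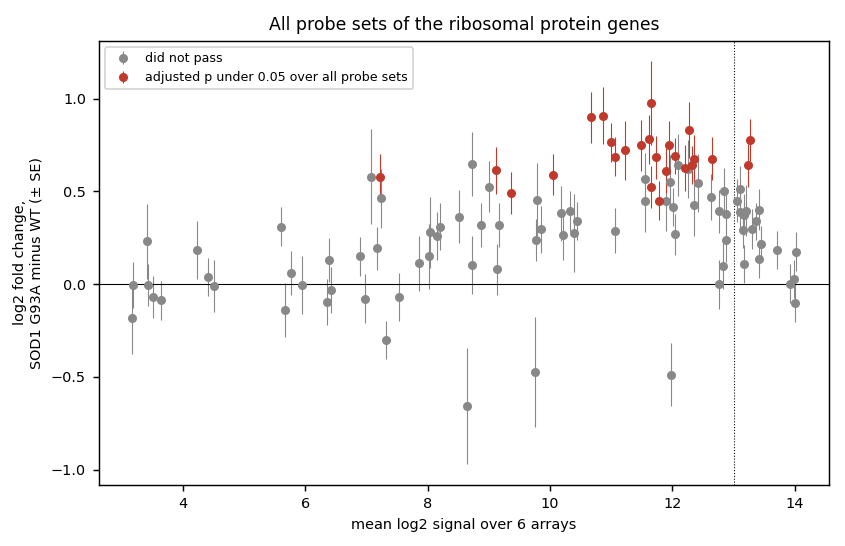
Log2 fold change, SOD1 G93A minus WT with its standard error, against the mean log2 signal over the 6 arrays for the 106 probe sets of the 50 genes, with the dotted line at a log2 signal of 13. Differences centre on 0 below a signal of 7, are widest between 10 and 13 with a median of 0.55, and are smaller again at 13 or more with a median of 0.30.

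Within genes the picture was mixed. In 6 genes the brightest probe set did not pass while a less bright one rose, and these are the genes named next. Rps18, a protein of the head of the small subunit, was read by a probe set with a mean log2 signal of 12.87 at a log2 fold change of 0.24 (adjusted p = 0.276 from limma). Less bright probe sets of Rps18, at 12.20 and 10.86, rose by 0.63 and 0.91 (adjusted p of 0.0279 and 0.0165 over the full array), and the 3 dimmest were between -0.09 and -0.01. Less bright probe sets also rose for Rpl13a (by 0.75), Rpl27 (0.69), Rpl35 (0.76 and 0.61), Rpl37a (0.78 and 0.58) and Rps10 (0.90 and 0.75). Brightness did not always part them, since the Rpl27 probe sets at 11.063 and 11.055 differed by 0.29 and 0.69. In other genes, among them Rps14, Rps3, Rps29 and Rps4x, the brightest probe set had the largest difference.

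In Rpl41 and Rps24 the probe sets went apart. For Rpl41 the probe sets at 13.26 and 13.23 rose by 0.78 and 0.64, and those at 9.75 and 8.64 differed by -0.48 and -0.66 with standard errors of 0.30 and 0.31, neither of which passed. For Rps24 the 4 brightest differed by 0.30 to 0.59, and the 2 dimmest by -0.30 (unadjusted p = 0.0172 in limma, and 0.144 after adjustment over the full array) and -0.14. Of the 24 genes with 2 or more probe sets, 13 had all differences of the same sign. The brightest probe set of 34 genes has a suffix (a_at, s_at or x_at) that marks probes shared between transcripts, and ribosomal protein genes have many near-identical pseudogene copies in the genome, so which transcripts these probe sets read is uncertain. The 71 suffixed probe sets had a median of 0.42 and the 35 others of 0.15. A larger share of the 35 was dim, with a mean log2 signal below 7, where differences centred on 0. Those of the 35 with a mean log2 signal of 10 or more differed by 0.28 to 0.98. The parts of suffix and brightness in these medians were not separated.

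**Figure D3:**
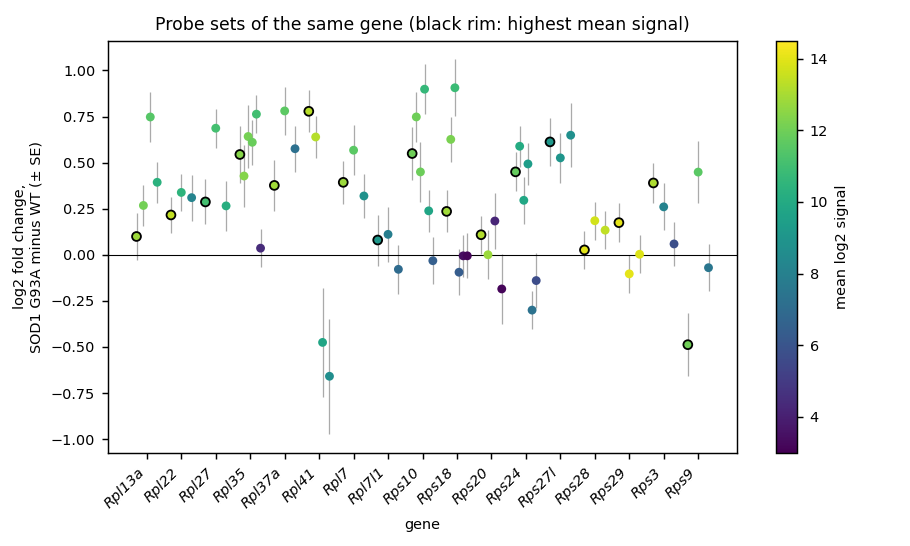
Log2 fold change with its standard error of every probe set of genes with several probe sets, coloured by mean log2 signal, with a black rim on the probe set of highest signal. The rimmed probe set of Rps18 lies at 0.24 below less bright ones at 0.63 and 0.91, and Rpl41, Rps24 and Rps9 have probe sets on both sides of 0.

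Other genes of translation were compared by lists. The list of other TOP mRNAs had a median log2 fold change of 0.39, like that of the ribosomal proteins, and 4 of its 17 measured genes rose and 0 fell. Of these, Eef2, Eef1d and Eif3h also stand in the lists of elongation or initiation. Naca, a chaperone subunit that meets the growing protein at the tunnel, rose by 0.69 (adjusted p = 0.0166 from limma), and Fau, whose product is cut to release the ribosomal protein Rps30, had 0.39 (adjusted p = 0.0639). Of 9 elongation and termination genes 3 rose and 1 fell, where 4.09% of all genes rose and 2.53% fell. Eef2, the translocation factor, rose by 0.86 (adjusted p = 0.0422), Eef1d, an exchange factor of elongation, by 0.58 (adjusted p = 0.0174), and Abce1, which splits used ribosomes, by 0.51 (adjusted p = 0.0280). Eef2k, the kinase that inhibits Eef2, fell by 0.66 (adjusted p = 0.0137).

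Of 30 initiation genes 5 rose and 0 fell, with a median of 0.34, against the 4.09% and 2.53% of all genes that rose and fell. All 5 encode subunits of the initiation factor eIF3, of which 11 were measured and 6 did not pass (among them Eif3a at 0.15, Eif3i at 0.13 and Eif3e at -0.01), with rises in limma of 0.62 for Eif3b (adjusted p = 0.0418), 0.61 for Eif3l (adjusted p = 0.0106), 0.60 for Eif3h (adjusted p = 0.0155), 0.54 for Eif3k (adjusted p = 0.0480) and 0.44 for Eif3c (adjusted p = 0.0465). Of 46 genes for the assembly of ribosomes 9 rose and 0 fell, against the same shares of all genes, with a median of 0.38. Nhp2, a core protein of the particles that modify ribosomal RNA, rose by 0.85 (adjusted p = 0.00571). Nop58, a scaffold of the methylating particles, and Pes1, which acts in the assembly of the large subunit, each rose by 0.71 (adjusted p = 0.0152 and 0.0114), and Nop16 rose by 0.65 (adjusted p = 0.0421).

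Regulators of growth moved less as a list, with a median of 0.05, and 1 rise and 1 fall among 16 genes is close to the shares of all genes. Myc, a transcription factor that drives ribosome production, rose by 0.84 (adjusted p = 0.00889 from limma), and Rptor, the subunit that brings substrates to mTORC1, fell by 0.77 (adjusted p = 0.0412). Mtor itself had a log2 fold change of 0.16 (adjusted p = 0.482) and Larp1, which binds TOP mRNAs, 0.37 (adjusted p = 0.146). Nhp2 and Myc passed with any 1 array left out. Nop58 did not pass without WT replicate 3 (adjusted p = 0.0669), Pes1 without WT replicate 2 (0.0501), Eif3l without SOD1 G93A replicate 3 (0.0510), and Naca and Eif3h without SOD1 G93A replicates 2 or 3 or WT replicate 3 (0.0562 to 0.0708). Eef2k was lost without these same arrays (0.0609 to 0.0653), Eef1d without any array numbered 2 or 3 (0.0501 to 0.0768), and Rptor and Eif3k without any but WT replicate 1 (0.0594 to 0.153). Eef2 and Nop16 passed without SOD1 G93A replicate 1 alone (0.0566 to 0.143 otherwise), and Abce1 and Eif3b with none left out (0.0538 to 0.137). Eif3c was not refitted in this way. With the mean of all probe sets of a gene Eef2 (0.39, adjusted p = 0.0529), Eif3l (0.27, adjusted p = 0.0865), Eif3h (0.28, adjusted p = 0.115), Eef1d (0.077, adjusted p = 0.752) and Rptor (-0.10, adjusted p = 0.612) did not pass in limma, nor did Eef2k without suffixed probe sets (-0.38, adjusted p = 0.0748).

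**Figure D4:**
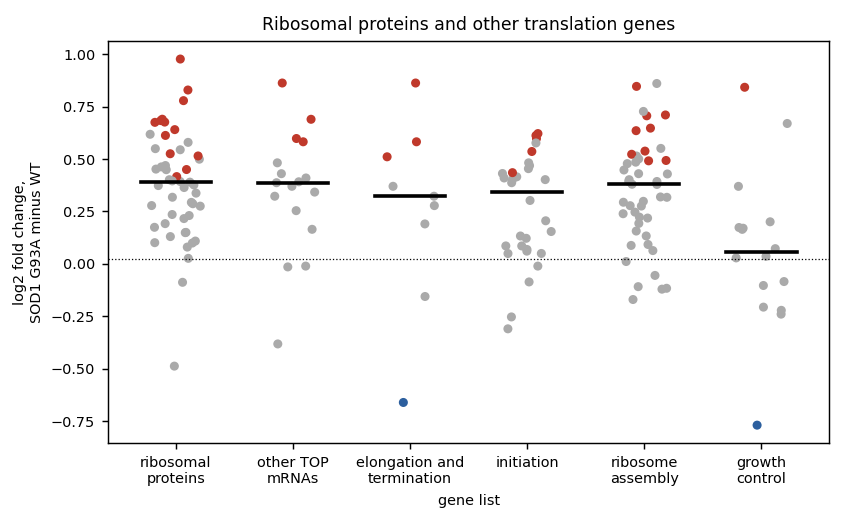
Log2 fold change, SOD1 G93A minus WT, of each gene in 6 lists, with the median of each list and, as a dotted line, the median of all genes at 0.02. The ribosomal proteins (median 0.39), other TOP mRNAs (0.39), elongation and termination (0.32), initiation (0.34) and ribosome assembly (0.38) lie above the line, and growth control (0.05) lies close to it.

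The arrays and the sorted cells differed between genotypes in other ways. The gap between the 3' and 5' control probe sets of Gapdh, a measure of how short the labelled copies are, was on the log2 scale 4.63, 4.28 and 3.47 on the SOD1 G93A arrays and 5.01, 4.79 and 4.87 on the WT arrays. The Gapdh gap did not overlap between genotypes, while that of actin did (3.36, 2.75 and 1.92 against 3.88, 2.90 and 3.49). With the Gapdh gap as a covariate 0 of the 13 genes passed in limma, with 23 of the 50 at an unadjusted p under 0.05. The share of all genes at that unadjusted p was not counted. The log2 fold changes of the 13 were then 0.35 to 0.82, and the median over the 50 genes was 0.41. That of Rplp0 was 0.49 in place of 0.98, and outside the ribosome Eef2 (0.32 in place of 0.86), Eif3b (0.31 in place of 0.62) and Nop16 (0.32 in place of 0.65) had lower values too. Among the 13 genes values went both ways, and Rps27l (0.82 in place of 0.61), Rps15 (0.73 in place of 0.675) and Rpsa (0.57 in place of 0.51) had higher ones. That fit leaves 3 residual degrees of freedom, and called 69 genes higher and 25 lower in all. Medians of the arrays lay between 5.93 and 5.97, a first principal component with 46.4% of the variance separated the genotypes, and a second with 28.0% set both arrays numbered 1 apart. Without these arrays 15 of the 50 genes rose, where 5.52% of all genes rose.

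Microglial markers were bright, with a median log2 signal of 12.63 over the genes, but those of neutrophils were bright too, with a median of 13.04. The sorted cells thus held RNA of other myeloid cells beside that of microglia. Of 9 microglial markers 0 passed the test in limma and 2 had an unadjusted p under 0.05. Their mean log2 signals were 12.23 to 12.41 on the SOD1 G93A and 12.20 to 12.43 on the WT arrays. Markers of most other cell types were lower in SOD1 G93A, those of endothelial and mural cells excepted, and for lymphocytes the differences were mixed. Of all genes 2.53% fell and 4.09% rose. Astrocyte markers fell in 6 of 10 genes (mean log2 signal 6.53 to 7.16 against 7.47 to 8.19) and neurone markers in 4 of 11 (5.01 to 5.16 against 5.71 to 5.95, with Snap25, Tubb3, Slc17a6, Nefm and Map2 at a mean close to background, the last pair among the 4 that fell). Oligodendrocyte markers fell in 2 of 9 (7.82 to 8.15 against 8.46 to 8.83), monocyte markers in 5 of 8 (8.73 to 9.22 against 9.63 to 10.14), and markers of border macrophages in 5 of 9 with 1 higher (8.67 to 8.98 against 9.18 to 9.51). The means of the neutrophil markers overlapped, at 10.86 to 11.67 against 11.40 to 12.40. All 9 neutrophil differences were below 0, 3 of these genes did not overlap, and 1 passed as lower. Lymphocyte markers were at 5.56 to 5.72 against 5.79 to 5.89, with 1 of 9 lower, Klrd1 at -1.79. The median lymphocyte difference was -0.04, and 4 of the 9 were above 0. Endothelial and mural markers were at 6.497 to 6.857 against 6.44 to 6.58 with 1 of 10 higher. The part of these cells and of the Gapdh measure in the differences of the ribosomal protein genes was not tested beyond the covariate.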

How the data were processed

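RNA of sorted microglia was measured on 6 Affymetrix arrays, 3 per genotype. The authors deposited 1 log2 signal for every probe set, made by RMA according to the submitters' processing notes, in Partek (version not given in the sources used here). The paper's methods name MAS 5.0 instead. Labelling is described as a double amplification in the methods and as a standard protocol in the labels. RMA brings arrays to a common distribution, so changes are relative.

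All 45037 probe sets other than 64 controls were fitted in limma 3.58.1 (R 4.3.3, lmFit and eBayes, SOD1 G93A minus WT). A gene was read by its brightest probe set with a single symbol (34945 have 1, 932 several, 9160 none), with Benjamini-Hochberg adjustment over 18193 genes. The model was tested on simulated data. With no read depth on arrays, precision is set by how many there are. No arrays held identical values. The alternatives were other tests, probe sets, filters, centrings, array weights, a Gapdh covariate, a replicate block and arrays left out in turn. Python 3.11.15 (pandas 2.3.3, numpy 2.4.6, matplotlib 3.10.9) was used for promoters and figures.

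The members and gene lists were chosen with earlier results of these data known. The genes named are all members that passed, those with the largest differences, stalk, 5S particle and paralogue members, Rps3, Rps6, Rpsa, the PCR reference genes, up to 4 passing genes of each other list, and members whose probe sets disagree. Others named (such as Rpl4, Rps28, Rps18, Eif3c, Fau, Mtor and Larp1) were chosen after their values were seen.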

Additional observations from a re-analysis of the deposited data

How the results depend on the processing

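The median log2 fold change of the 50 genes kept its sign in every alternative run and lay between 0.35 and 0.42, and between 0.36 and 0.41 with arrays left out in turn. In the methods' t-test 0 of all genes passed. It gave 24 of the 50 genes an unadjusted p under 0.05, a share not counted over all genes. The count of genes that rose, 13, was 0 in that t-test and 0 with the Gapdh covariate. It was 21 with the mean of all probe sets of a gene (4.69% of all genes rose) and 20 with array weights (5.98%). At a mean log2 signal of at least 7 it was 24 of 46 (10.8% of all genes so tested rose). It was 2 at the study's thresholds taken with the p of limma, and 2 to 13 with arrays left out in turn. The count that fell was 0 to 1 with arrays left out, and 0 otherwise. With a replicate block 23 rose (6.8% of all genes). The replicate numbers are not tied to litters by the labels, although the methods state that groups were litter-matched. Deviations of same-numbered arrays correlated at 0.44, 0.24 and 0.04 over all genes and at 0.61, 0.43 and 0.28 over the 50 genes. SOD1 G93A replicate 3 correlated best with WT replicate 2 (0.42 and 0.63). With the mean of all probe sets Rpl41 (0.071), Rpsa (0.25), Rps24 (0.23), Eef1d (0.077), Rptor (-0.10), Eef2 (0.39), Eif3l (0.27) and Eif3h (0.28) did not pass, and Tbp turned to -0.098. Eef2k did not pass without suffixed probe sets (-0.38). Without both arrays numbered 1 Rpsa, Rps24, Rpl8 and Abce1 did not pass (adjusted p from 0.0611 to 0.0811), nor with trend and robust eBayes Eif3b (0.0521) and Eif3k (0.0618). Without suffixed probe sets the sign turned for Rpl41 (-0.66), Rps24 (-0.30), Tbp (-0.34) and Actb (-0.016), none of which passed. It turned with array weights for Rpl7l1 (-0.025) and Mrps9 (0.021), without both arrays numbered 1 for Rpl7l1 (-0.078), Mrps9 (0.066) and Tbp (-0.050), with median centring for Mrps9 (0.016), and with the Gapdh covariate for Mrps9 (0.17) and Actb (-0.026). With arrays left out in turn, Rpl7l1 ranged from -0.044 to 0.176, Mrps9 ranged from -0.093 to 0.123 and Tbp ranged from -0.040 to 0.279. Centring on genes that are not ribosomal proteins ended the calls of Rplp0 (adjusted p = 0.057 in limma), Rps24 (0.0527), Rpl8 (0.0619), Eef2 (0.0649), Eif3b (0.0603) and Nop16 (0.0626). The causes of these changes were not tested. Near background and near the top of the scale, the signal limits what a difference can show.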
